A study of Mus musculus with 12 samples.

Results

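The 10 genes described here, Spp1, Bglap, Bglap2, Ibsp, Sp7, Runx2, Dmp1, Sost, Phex and Alpl, are used as markers of osteoblasts and osteocytes, the cells that build and maintain the bony capsule around the cochlea. They were chosen by name from the 37432 genes of 1 expression table, and each name matched 1 row. All 10 passed the filter on low values and were tested among 16215 genes. The label "bone genes" is used for them below.

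RNA-seq was performed at P14, around the time when hearing begins, on cochleae of mice homozygous for Gjb2 35delG (35delG/35delG) and of wild-type controls. Each cochlea was cut into 3 equal pieces, the apical, middle and basal turns, and the 2 genotypes and 3 turns form 6 groups of 2 biological repeats, 12 libraries. Gjb2 encodes connexin 26, a gap junction protein of cochlear supporting cells and fibrocytes, and 35delG removes 1 base of its coding sequence. The deposited sample labels name the groups WT and KO. Homozygous (Hom) animals were males derived from embryonic stem cells by tetraploid complementation, carried by ICR foster mothers, with a background given as almost C57BL/6J. Control males of the same age came from a commercial supplier, and their strain is not given in the sources used here. Genotype and origin of the mice cannot be told apart in any comparison below. How many mice, and how many embryonic stem cell lines, went into a library is not given in the sources used here, so p-values measure only the spread between these libraries. The pieces were sections of the cochlea, and RNA of the tissues in each was sequenced together. How much bone, marrow, nerve and epithelium a piece held is not given in the sources used here. In such bulk samples fewer cells of a type and less RNA per cell cannot be told apart.

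Bone is laid down by osteoblasts, which differentiate under the transcription factors RUNX2 and SP7, secrete a collagen matrix with osteopontin, bone sialoprotein and osteocalcin, and load it with mineral with the help of alkaline phosphatase. Some osteoblasts become walled in as osteocytes, which express DMP1, PHEX and sclerostin and hold back further bone formation and phosphate loss. The otic capsule is known as bone that is remodelled very little after it has formed, so that its osteocytes are long-lived.

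Osteocalcin is encoded by near-identical neighbouring genes in the mouse, which matters for the values of Bglap and Bglap2. In GRCm38, Bglap lay at chr3:88383501-88384433, Bglap2 at chr3:88377736-88378699 and the third copy, Bglap3, at chr3:88368616-88372743, all on the minus strand within 15818 bases. Bglap2 and Bglap were separated by 4801 bases. Their coding sequences, spread over 4 exons and shown to let the copies be compared, were 288 bases long and identical at 284 of them (98.6%). Capitals mark the 4 bases that differ.
Bglap, coding sequence between chr3:88383635-88384415, minus strand: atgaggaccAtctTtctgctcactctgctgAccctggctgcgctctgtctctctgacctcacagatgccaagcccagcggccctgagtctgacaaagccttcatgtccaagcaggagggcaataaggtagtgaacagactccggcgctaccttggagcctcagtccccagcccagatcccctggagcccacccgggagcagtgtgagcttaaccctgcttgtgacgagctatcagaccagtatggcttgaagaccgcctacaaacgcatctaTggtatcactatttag
Bglap2, coding sequence between chr3:88377870-88378650, minus strand: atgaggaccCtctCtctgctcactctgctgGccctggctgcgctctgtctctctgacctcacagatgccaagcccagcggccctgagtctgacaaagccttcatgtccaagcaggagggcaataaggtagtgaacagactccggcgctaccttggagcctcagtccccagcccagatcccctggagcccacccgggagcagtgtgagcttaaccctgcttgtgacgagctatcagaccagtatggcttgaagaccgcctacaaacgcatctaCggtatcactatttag
Of the 4 differences, 3 lay within the first 60 coding bases, and the transcripts shared an identical stretch of 241 bases, longer than the 150 nt reads. Only uniquely mapped reads had been kept, so reads that fit both copies equally would be missing. The levels of Bglap and Bglap2 may be understated for this reason, and their ratio is uncertain.

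The other bone genes lay on chromosomes 4, 5, 11, 15, 17 and X. Dmp1 (chr5:104202613-104214102), Ibsp (chr5:104299171-104311469) and Spp1 (chr5:104435118-104441050) stood in the same orientation within 238438 bases, together with the osteocyte gene Mepe, and belong to a family of acidic phosphoproteins of mineralized tissue. Runx2 was at chr17:44496486-44814797, Sp7 at chr15:102356606-102366968, Sost at chr11:101962458-101967015, Phex at chrX:157162075-157415286 and Alpl at chr4:137741733-137796384. All are protein-coding genes.

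Because RUNX2 is itself a member, the letters ACCACA, the core sequence bound by RUNX proteins, and their reverse complement TGTGGT were searched in the 250 bases before each RefSeq transcription start (GRCm38.p6). Of the 10 bone genes, 8 had an entry (Bglap2 and Sp7 did not), and 4 of these 8 held the letters, against 15.9% of all genes with an entry. The 4 stretches of 60 bases around them are shown on the strand of the gene, with the core in capitals.
Bglap, chr3:88384566-88384625, minus strand: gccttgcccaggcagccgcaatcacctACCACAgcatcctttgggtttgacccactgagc
Dmp1, chr5:104202426-104202485, plus strand: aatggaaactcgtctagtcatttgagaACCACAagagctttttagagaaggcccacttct
Spp1, chr5:104434956-104435015, plus strand: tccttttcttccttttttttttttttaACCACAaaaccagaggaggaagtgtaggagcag
Runx2, chr17:44814675-44814734, minus strand: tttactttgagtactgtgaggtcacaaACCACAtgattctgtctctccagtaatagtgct
The core began 132 bases before the start in Bglap, 164 in Dmp1, 128 in Spp1 and 80 in Runx2. A match describes these letters only and is not evidence of binding.

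Values below are FPKM, fragments scaled to the length of the transcript and to the number of fragments mapped, and were divided by 1 scaling factor per library, so they are per length and can be set side by side between genes. Differences are log2 fold changes of scaled FPKM + 1, which understate the change of genes near or below 1. The libraries were not alike in tissue content. Markers of Schwann cells summed to between 5984 and 20164 scaled FPKM in the wild-type middle and the homozygous basal libraries, and to between 796 and 5680 in the other 8. Markers of blood and marrow summed to 6989 in wild-type basal repeat 2 and 9602 in homozygous middle repeat 1, against 266 to 3588 elsewhere. The deleted base cannot be seen in FPKM, and Gjb2 itself was at 140 to 434 in the 6 wild-type and 58.6 to 451 in the 6 homozygous libraries. In the basal turn it was at 434 and 256 in the wild-type against 126 and 58.6 in the homozygous pair. The log2 fold change there was -1.94 (SE 0.47, limma adjusted p = 0.0238). Those of the apical and middle turns were 0.49 and 0.81 (limma adjusted p = 0.658 and 0.319).

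Spp1, which encodes the matrix protein osteopontin, was the most abundant bone gene in every library. It was at 941 and 934 in wild-type apical, 1471 and 2036 in wild-type middle, and 855 and 2807 in wild-type basal repeats 1 and 2. In homozygous pieces it was at 1185 and 2116 (apical), 1998 and 1466 (middle) and 1183 and 1049 (basal). Its range was narrow beside that of the other members, 3.28-fold over the wild-type and 2.02-fold over the homozygous libraries, and it made up between 51.8% and 94.6% of the summed level of the 10 genes. Spp1 is also made by cells outside bone, including epithelial cells and macrophages.

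Bglap, which encodes osteocalcin, a late product of osteoblasts, had the widest range. Its levels were 2.38 and 4.15 in wild-type apical, 25.8 and 2.17 in wild-type middle, and 4.11 and 1102 in wild-type basal repeats 1 and 2. In homozygous libraries they were 34.9 and 36.8 (apical), 790 and 47.2 (middle) and 53.4 and 52.5 (basal). So 1 wild-type basal and 1 homozygous middle library stood far above the rest, and 5 of the 6 wild-type libraries lay below all 6 homozygous ones. The 6 wild-type libraries had a median of 4.13 and spanned 507-fold, the 6 homozygous ones a median of 49.8 and 22.6-fold.

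Bglap2 had the same order of extremes, with 524 in wild-type basal repeat 2 and 242 in homozygous middle repeat 1. The other 5 wild-type libraries had 1.10 to 12.7 and the other 5 homozygous ones 10.6 to 21.0. The ratio of Bglap to Bglap2 did not overlap between the genotypes, with 1.14 to 2.16 for wild-type and 2.50 to 3.28 for homozygous libraries. This ratio rests on the reads that could be told apart between the copies, so it is uncertain. It also rests on low values in both wild-type apical libraries, wild-type middle repeat 2 and wild-type basal repeat 1. There Bglap was at 2.17 to 4.15 and Bglap2 at 1.10 to 3.11. The third copy, Bglap3, reached 34.3 in wild-type basal repeat 2, against 0.586 to 1.73 in the other wild-type libraries, and ranged from 0.378 to 25.8 over the homozygous ones.

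Alpl, the tissue-nonspecific alkaline phosphatase that frees phosphate for mineral, was at 4.85 and 4.14 in wild-type apical, 27.2 and 7.65 in wild-type middle, and 4.97 and 104 in wild-type basal repeats. Homozygous levels were 16.0 and 29.2 (apical), 73.5 and 25.9 (middle) and 23.4 and 30.6 (basal). The 2 highest libraries were again wild-type basal repeat 2 and homozygous middle repeat 1. Of the 6 wild-type libraries, 4 lay below all homozygous ones.

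Ibsp, which encodes bone sialoprotein, a nucleator of mineral, was lowest in the wild-type apical turn. It was at 18.8 and 52.4 there, whereas wild-type middle pieces had 694 and 384 and wild-type basal pieces 226 and 697. In homozygous pieces it was at 157 and 414 (apical), 487 and 306 (middle) and 203 and 107 (basal). The genotypes overlapped widely, with a median of 254 over the 6 homozygous and 305 over the 6 wild-type libraries.

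The transcription factors were expressed at low levels. Runx2, required for osteoblasts to form, was at 1.12 and 1.61 in wild-type apical, 7.19 and 1.97 in wild-type middle, and 0.872 and 8.57 in wild-type basal repeats. In homozygous libraries it was at 3.62 and 4.56 (apical), 9.49 and 5.88 (middle) and 5.98 and 3.38 (basal). Sp7, or osterix, which acts after RUNX2, ranged from 1.42 to 22.6 among wild-type and from 5.37 to 19.4 among homozygous libraries. Both genes were highest in the same 3 libraries, wild-type basal repeat 2, homozygous middle repeat 1 and wild-type middle repeat 1, though not in the same order.

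Among the osteocyte genes, Dmp1, a matrix phosphoprotein of osteocytes, was at 20.9 and 39.1 in wild-type apical, 177 and 60.6 in wild-type middle, and 49.0 and 112 in wild-type basal repeats. Its homozygous levels were 42.0 and 93.4 (apical), 87.5 and 121 (middle) and 65.6 and 44.3 (basal). The highest library was wild-type middle repeat 1, not the pair that led for Bglap. Phex, an endopeptidase that restrains the phosphate-wasting hormone FGF23, was at 3.57 and 7.11 in wild-type apical libraries and peaked in wild-type middle repeat 1 at 52.6. Sost, which encodes the WNT inhibitor sclerostin, was the rarest member in 11 of the 12 libraries, from 0.0542 in wild-type apical repeat 1 to 11.8 in homozygous middle repeat 2.

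**Figure D1:**
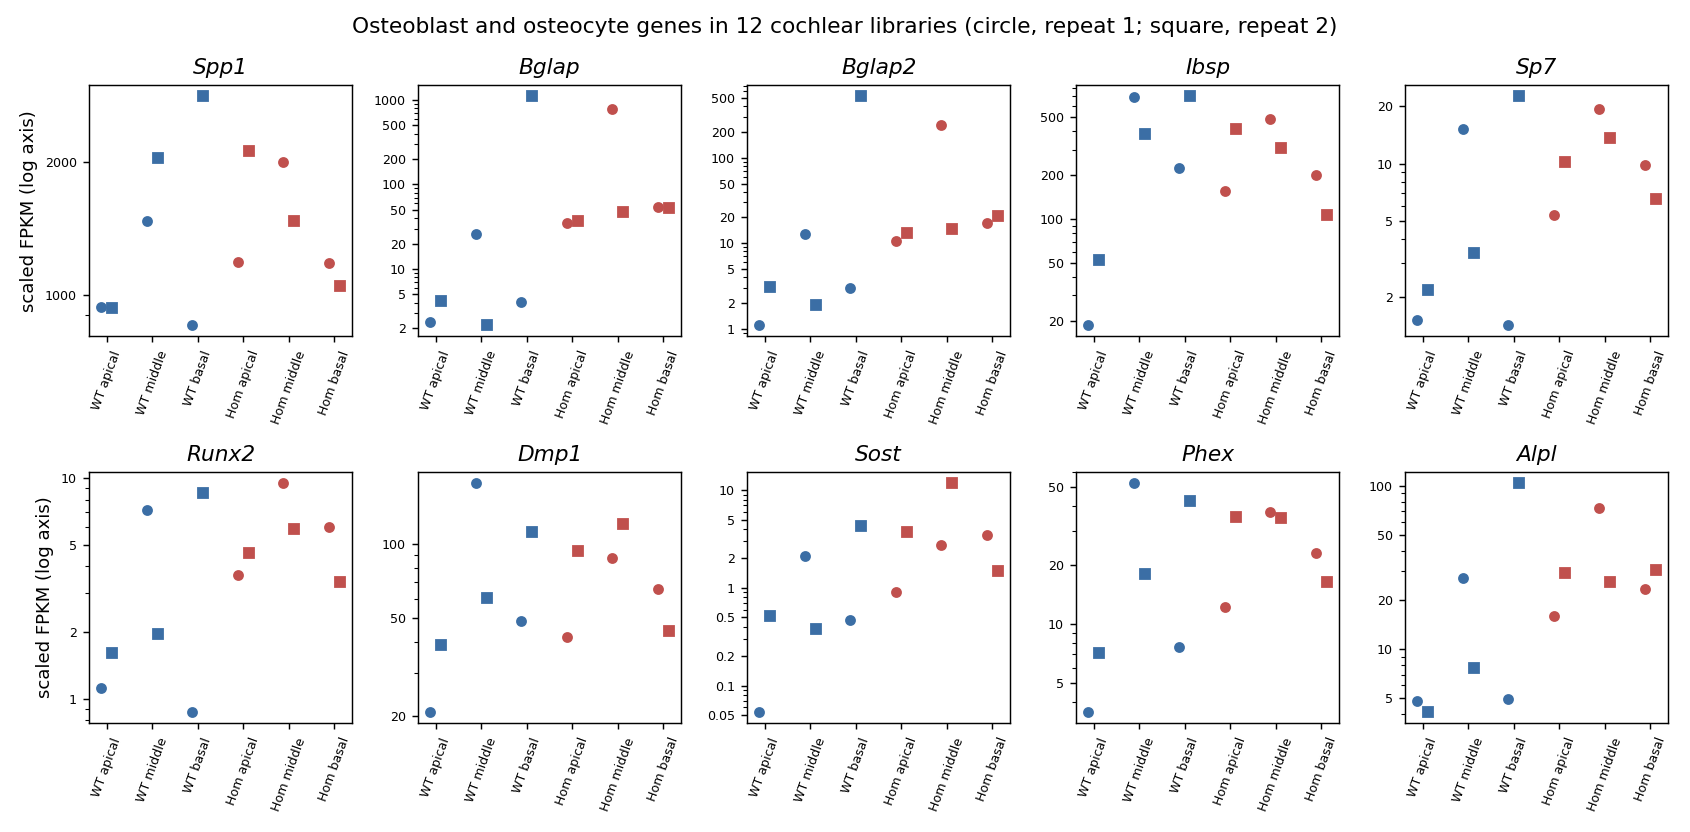
Level of each bone gene (scaled FPKM, log axis) in the 6 groups of genotype and turn, with wild-type in blue and homozygous in red, repeat 1 as a circle and repeat 2 as a square. Wild-type apical libraries sit low in each panel, and for Bglap, Bglap2 and Alpl wild-type basal repeat 2 and homozygous middle repeat 1 stand above the others.

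The spread between repeats was large beside that of other genes. Wild-type basal repeat 2 was above repeat 1 for 10 of 10 bone genes, from 2.29-fold in Dmp1 to 268-fold in Bglap, with a median of 9.48-fold. All 10 differed by more than 2-fold on the log2(scaled FPKM + 1) scale, as did 14.4% of all genes tested. In the wild-type middle turn repeat 1 was higher for 9 of 10 (median of the folds between repeats 3.60), and 8 differed by more than 2-fold, against 4.85% of all genes. In homozygous apical pieces repeat 2 was higher for 10 of 10 with a median fold of 1.86, and 4 differed by more than 2-fold, against 2.49% of all genes.

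The repeats of the homozygous middle turn differed by 16.8-fold in Bglap and 16.5-fold in Bglap2 and by a median of 1.60-fold over the 10 genes. Here 4 differed by more than 2-fold on the log scale, against 6.67% of all genes. The homozygous basal repeats were closest, with no member over 2-fold on that scale (6.35% of all genes) and Bglap within 1.02-fold. In the wild-type apical turn 1 member passed 2-fold (1.55% of all genes).

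Other cell types moved with the highest libraries. Osteoclast markers, a list of 13 genes of bone-resorbing cells, summed to 454 in homozygous middle repeat 1 and 129 in wild-type basal repeat 2, against 37.5 to 82.2 in the other 10 libraries. Acp5, an acid phosphatase of osteoclasts, was at 152 and 20.7 in these 2 libraries and at 0.399 to 11.6 elsewhere, and Ctsk, their collagen-degrading protease, at 173 and 50.2, against 8.03 to 25.8. Atp6v0d2, Dcstamp, Ocstamp and Calcr of this list were listed at 0 in at least 1 library. The same 2 libraries had the highest sums of blood and marrow markers. The part of these cells in the levels of the bone genes was not tested.

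**Figure D2:**
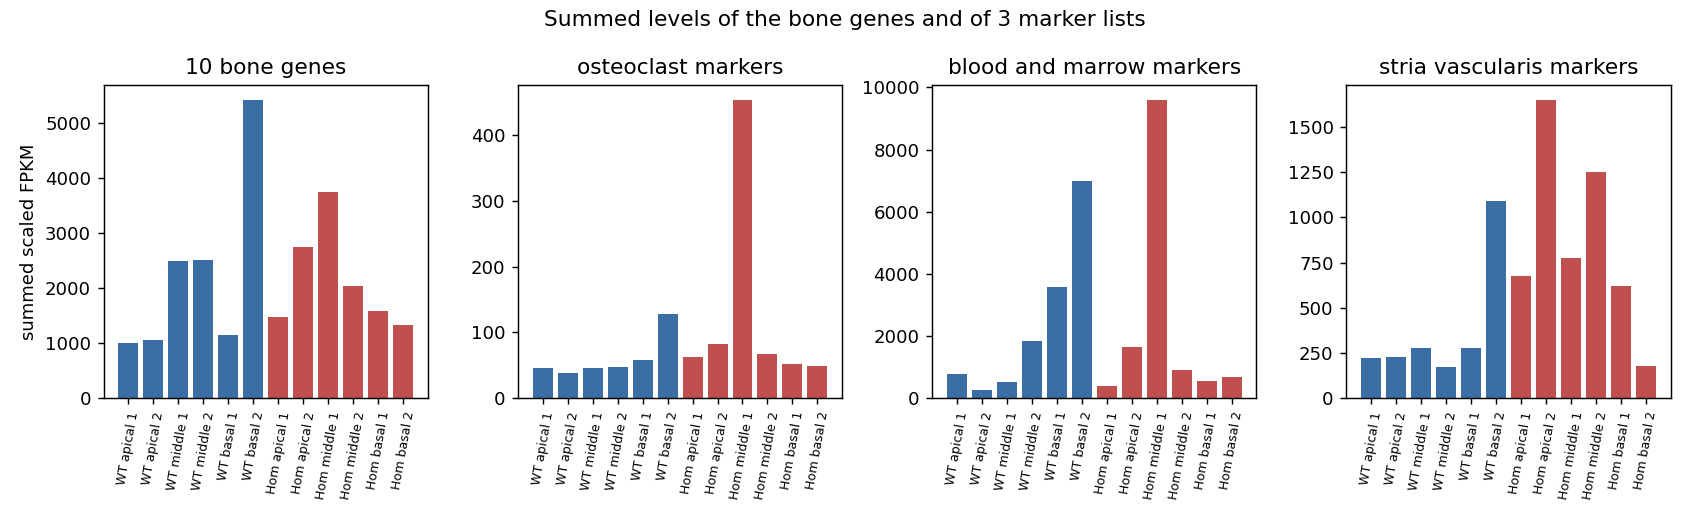
Summed scaled FPKM of the 10 bone genes and of osteoclast, blood and marrow, and stria vascularis markers in each of the 12 libraries (bars, wild-type blue, homozygous red, linear axes from 0). Wild-type basal repeat 2 and homozygous middle repeat 1 have the highest sums of bone, osteoclast and blood and marrow genes, whereas stria vascularis markers are highest in homozygous apical repeat 2.

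In the apical turn, the bone genes were higher in homozygous than in wild-type libraries, but none was called at an adjusted p under 0.01 with more than a 2-fold change (limma), where 0.179% of all genes tested were called. For 10 of 10 genes the lower homozygous library was still above the higher wild-type one, an order that 26.9% of all genes had. The median log2 fold change was 1.72, against -0.03 for all genes. An unadjusted p under 0.05 was reached by 2 of 10, against 16.4% of all genes. The 10 genes moved together from library to library (below), so they do not count as 10 separate observations.

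Ibsp had the smallest p of these. Wild-type apical pieces averaged 35.6 ± 23.8 (SD, n = 2) and homozygous ones 285 ± 182. Its log2 fold change was 2.98 (SE 0.72, limma adjusted p = 0.0987). Phex, at 5.34 ± 2.50 and 23.8 ± 16.4, differed by 1.85 on the log2 scale (SE 0.79, limma adjusted p = 0.291). Bglap had the largest estimate, 3.14, but its SE of 2.22, which pools the spread of all 6 groups, gave a 95% interval of -1.90 to 8.18. Its apical repeats themselves were close, 3.27 ± 1.26 (wild-type) and 35.8 ± 1.35 (homozygous). Fitted on the 4 apical libraries alone, Bglap was called, with an adjusted p of 0.00607 (limma). The 0.179% above belongs to the fit on 12 libraries. The share of all genes called in the fit on 4 is not given here, so this call has no background beside it.

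The other 7 apical log2 fold changes ran from 0.76 in Spp1 to 2.13 in Bglap2, with Runx2 at 1.11, Sost at 1.24, Sp7 at 1.58 and Alpl at 2.05. Their adjusted p-values were between 0.414 and 0.657. Without homozygous apical repeat 2, Spp1 was at 0.34, Dmp1 at 0.54 and Sost at 0.59. In the same comparison 8 of 9 markers of the stria vascularis, the epithelium that secretes potassium into the endolymph, were higher in both homozygous libraries (26.9% of all genes), and the list summed to 221 and 226 in the wild-type against 673 and 1650 in the homozygous pair, though Kcne1 and Bsnd of this list were listed at 0 in at least 1 of the 12 libraries. Osteoclast markers were higher in both homozygous libraries for 9 of 9 tested (26.9% of all genes), with sums of 37.5 and 46.4 against 63.0 and 82.2. Hair cell markers had lower homozygous means for 10 of 10, with sums of 1142 and 1339 against 452 and 534. The part of these differences in tissue content was not tested.

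Between middle turns no bone gene was called and none had an unadjusted p under 0.05 (limma), against 0.179% and 25.4% of all genes. Of the 10 log2 fold changes, 7 were above 0 and 3 below, with a median of 0.91 against 0.04 for all genes. With FPKM as deposited or rescaled to equal sums, 9 were above and 1 below. The groups were without overlap, homozygous above, for 3 genes (31.3% of all genes), namely Bglap, Bglap2 and Sost. Their log2 fold changes were 4.41, 3.29 and 1.73, and their adjusted p-values 0.253, 0.344 and 0.213. Without homozygous middle repeat 1 the values of Bglap and Bglap2 were 2.38 and 1.31, and without repeat 2 they were 6.42 and 5.26 and Sost was 0.84. Spp1 and Dmp1 stood at -0.02 and -0.01 with 95% intervals of -1.35 to 1.31 and -1.40 to 1.38, so that differences of more than 2-fold in either direction remained possible. Here all 14 blood and marrow markers had higher homozygous means, their sums being 532 and 1826 in the wild-type pair against 9602 and 907 in the homozygous pair. Stria vascularis markers were higher in both homozygous middle libraries for 8 of 9 (31.3% of all genes), 8 with an unadjusted p under 0.05 (25.4% of all genes) and 0 called (limma, 0.179%), and summed to 279 and 175 against 776 and 1252. The part of either was not tested.

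In the basal turn no bone gene was called and none had an unadjusted p under 0.05 (limma), against 4.29% and 32.4% of all genes. The log2 fold changes were split 5 and 5 in sign, with a median of -0.19. Ibsp alone was without overlap, lower in both homozygous libraries (27.8% of all genes), with 462 ± 333 (SD, n = 2) for the wild-type and 155 ± 67.4 for the homozygous pair. Its log2 fold change was -1.42 (SE 0.72, limma adjusted p = 0.210). For Bglap the difference of -0.48 had a 95% interval of -5.52 to 4.56, because wild-type repeat 1 lay below and repeat 2 far above both homozygous repeats. Without wild-type basal repeat 2 this difference was 3.40, and without repeat 1 it was -4.36. Blood and marrow markers were lower in both homozygous basal libraries for 14 of 14 genes (27.8% of all genes). Their sums were 3588 and 6989 in the wild-type pair against 555 and 685 in the homozygous pair, and their part was not tested.

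Averaged over the 3 turns, the 10 log2 fold changes were above 0, with a median of 0.86 against 0.00 for all genes, and none was called (0.376% of all genes). Of the 10, 1 had an unadjusted p under 0.05 (18.6% of all genes). This was Sost, at 1.08 (SE 0.46, limma adjusted p = 0.253). The largest mean was that of Bglap, 2.36 with a 95% interval of -0.55 to 5.27. Without wild-type basal repeat 1 it was 1.06, and without repeat 2 it was 3.65.

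**Figure D3:**
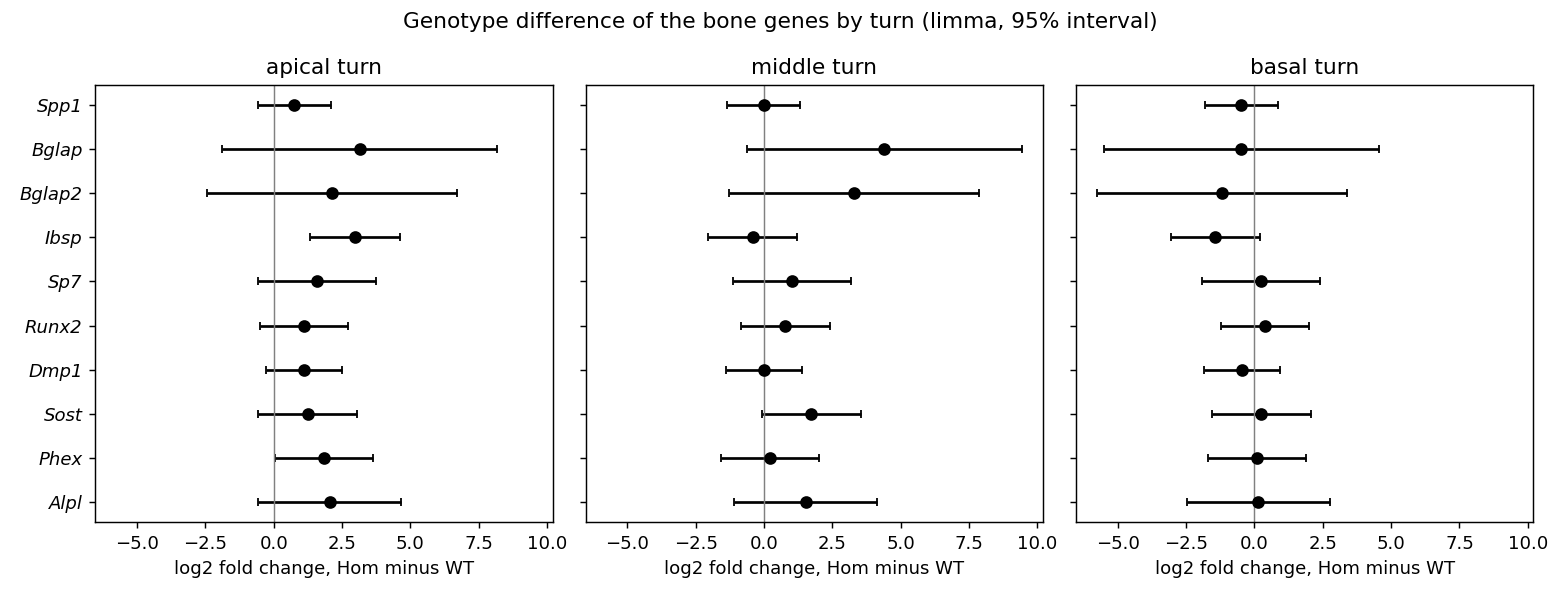
Log2 fold change of each bone gene, homozygous minus wild-type, in the apical, middle and basal turn (points) with its 95% interval from limma (bars). In the apical turn the 10 points lie right of 0, with the intervals of Ibsp and Phex clear of it, and in the basal turn the points scatter on both sides, from -1.42 in Ibsp to 0.39 in Runx2.

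The genotype difference was next compared between turns. It was lower in the basal than in the apical turn for 10 of 10 bone genes, with a median of -1.66. None was called, where 0.796% of all genes were, and 1 of 10, Ibsp, had an unadjusted p under 0.05, against 28.4% of all genes. For Ibsp this difference of differences was -4.40 (SE 1.02, 95% interval -6.71 to -2.09, limma adjusted p = 0.0278), which passes 0.05 but not 0.01. It was below 0 for 10 of 10 genes also between the basal and the middle turn, with a median of -0.89, 0 called and 0 with an unadjusted p under 0.05 (limma), against 8.91% and 37.7% of all genes. Between the middle and the apical turn 3 were above and 7 below 0, with 0 called (0% of all genes) and 1 with an unadjusted p under 0.05 (8.05% of all genes), again Ibsp at -3.39 with an adjusted p of 0.569 (limma). These comparisons share libraries and are not separate pieces of evidence.

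Between the turns of wild-type cochleae, the apical group mean was the lowest for 10 of 10 bone genes. The middle mean was higher for all 10, 7 of them without overlap (30.8% of all genes), with a median log2 fold change of 1.33. None was called (0.0863% of all genes), and 3 had an unadjusted p under 0.05 (19.9% of all genes). These were Ibsp at 3.99 (SE 0.72, limma adjusted p = 0.0547), Phex at 2.39 (SE 0.79, adjusted p = 0.184) and Dmp1 at 1.82 (SE 0.61, adjusted p = 0.188). The basal mean also exceeded the apical one for all 10, 4 without overlap (25.2% of all genes), with 0 called (0.0863%). Of the 10, 1 had an unadjusted p under 0.05 (20.3% of all genes), Ibsp, at 3.61 (SE 0.72, limma adjusted p = 0.0558). Between the wild-type basal and middle turns 4 were higher and 6 lower, with 0 called (0% of all genes) and 0 with an unadjusted p under 0.05 (limma, 15.2% of all genes).

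In homozygous cochleae the means of all 10 bone genes were higher in the middle than in the apical turn, 4 of them without overlap (12.6% of all genes), namely Bglap, Bglap2, Sp7 and Runx2. None was called or had an unadjusted p under 0.05 (limma), against 0% and 2.65% of all genes. From the homozygous apical to the basal turn 6 were higher and 4 lower, and Bglap and Bglap2 were without overlap above (29.0% of all genes) and Spp1 below (30.5%). None was called or had an unadjusted p under 0.05 (limma), against 4.06% and 32.9% of all genes. From the homozygous middle to the basal turn 10 of 10 had lower means, 5 without overlap (33.2% of all genes), which were Spp1, Ibsp, Sp7, Dmp1 and Phex. Here too 0 were called and 0 had an unadjusted p under 0.05 (limma), against 4.66% and 34.6% of all genes.

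The bone genes varied together over the 12 libraries. Over the 45 pairs Pearson's r of log2(scaled FPKM + 1) ran from 0.51 to 0.99 with a median of 0.76. The libraries share genotypes, turns and possibly mice, so r is given as a description. Sp7 was closest to Runx2 (r = 0.99), Bglap to Bglap2 (0.99), Alpl to Bglap (0.96), Dmp1 to Phex (0.95), Ibsp to Dmp1 (0.90), Sost to Sp7 (0.82) and Spp1 to Phex (0.77). The pair of Bglap, a product of mature osteoblasts, and Dmp1, one of osteocytes, had an r of 0.55. Without the 2 libraries highest in Bglap the median r was 0.76 and the lowest 0.23, between Spp1 and Bglap.

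**Figure D4:**
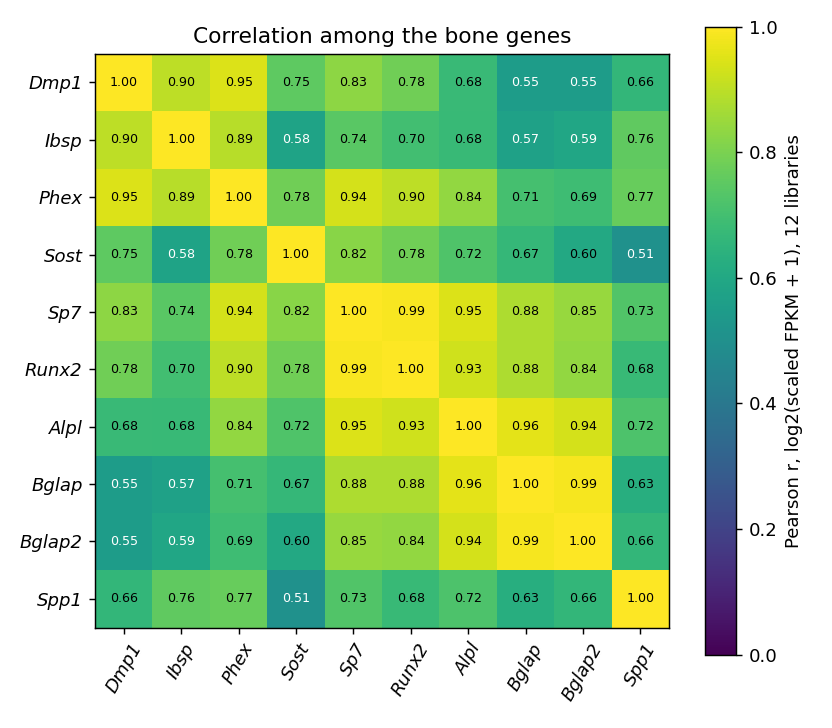
Pearson's r between each pair of bone genes over the 12 libraries, from log2(scaled FPKM + 1), in colour and in digits. Dmp1, Ibsp and Phex (0.89 to 0.95) and Alpl, Bglap and Bglap2 (0.94 to 0.99) form blocks of high r, and r between the blocks is lower, down to 0.55.

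The proportion of osteocalcin to osteocyte transcripts separated the libraries further. The ratio of Bglap to Dmp1 was 9.81 in wild-type basal repeat 2 and 9.03 in homozygous middle repeat 1. In the other 5 wild-type libraries it was 0.0358 to 0.146, and in the other 5 homozygous libraries 0.391 to 1.18. Dmp1 was at 112 and 87.5 in the first 2 libraries, within the range of the others, so that the high ratios were set by Bglap. In sum the 10 genes made up 0.314% to 1.28% of a library's FPKM, least in wild-type apical repeat 1 and most in wild-type basal repeat 2.

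**Figure D5:**
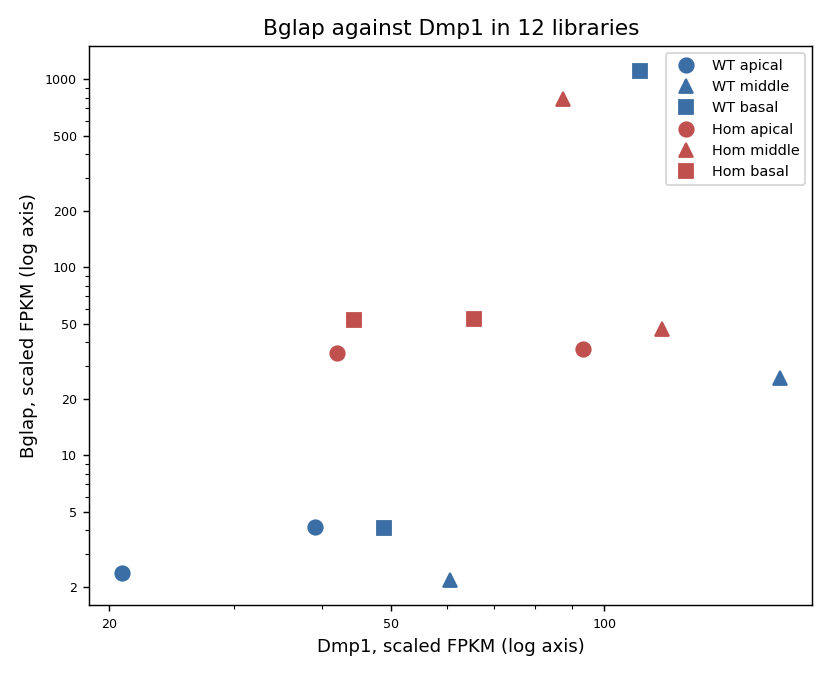
Bglap against Dmp1 (scaled FPKM, log axes) in the 12 libraries, with colour for genotype and shape for turn. At like levels of Dmp1 the homozygous libraries lie above the wild-type ones, apart from wild-type basal repeat 2 at 1102, and Dmp1 does not separate the genotypes.

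Other genes of bone, taken from hand-compiled lists, were counted in the same way. Of 22 other matrix and mineralization genes, 18 had higher homozygous means in the apical turn, 16 of them without overlap (26.9% of all genes), and 0 were called (limma, 0.179% of all genes). At an unadjusted p under 0.05 there were 3 (16.4% of all genes), 1 of them higher and 2 lower. Between middle turns 16 were higher and 6 lower, 7 without overlap above (31.3% of all genes), whereas between basal turns 6 were higher and 16 lower, 6 without overlap below (27.8% of all genes). The most abundant were Sparc (osteonectin), at 922 to 5908, Col1a2, a chain of type I collagen, at 133 to 1026, and Mgp, an inhibitor of calcification, at 57.9 to 908. The other chain of type I collagen, Col1a1, chosen after its values were seen, was at 758 in homozygous middle repeat 1 and 315 in wild-type basal repeat 2, against 3.76 to 67.2 elsewhere. In the middle turn 1 was called (0.179% of all genes, in either direction), higher, Serpinf1, which encodes PEDF, a secreted factor needed for normal bone mineral. Its levels were 36.6 and 56.6 in the wild-type pair against 188 and 181 in the homozygous pair (limma adjusted p = 0.00791). With each of the 12 libraries left out in turn, Serpinf1 stayed called in 2 fits, those without either wild-type basal repeat, and its limma adjusted p ran from 0.00803 to 0.0503, the last without homozygous middle repeat 1.

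In the basal turn 2 of the 22 matrix genes were called, both lower in homozygous pieces, Lox and Omd, where 4.29% of all genes were called in either direction. Lox, a collagen cross-linking oxidase, was at 120 and 211 in the wild-type pair against 7.28 and 6.17 in the homozygous pair (log2 fold change -4.38, SE 0.37, limma adjusted p = 0.00126). It was also lower averaged over the turns, by -2.29 (SE 0.22, adjusted p = 0.00197). The basal call of Lox held in 12 of 12 fits with a library left out (limma adjusted p at most 0.00820), and the call over the turns in 8, with a highest limma adjusted p of 0.0141, being lost without any one of the apical libraries. Omd, osteomodulin, a keratan sulphate proteoglycan of bone, was at 52.8 and 153 in the wild-type pair against 12.3 and 11.9 in the homozygous pair (log2 fold change -2.80, SE 0.49, adjusted p = 0.00887). Omd stayed called in 1 of those 12 fits, the one without wild-type basal repeat 1, and its limma adjusted p ran from 0.00695 to 0.0417, the last without homozygous basal repeat 1. Both wild-type libraries lay above both homozygous ones for Lox and Omd, unlike Bglap, Bglap2 and Alpl. Genes of other tissues differed here too, in both directions. Schwann cell markers had higher homozygous means for 10 of 10, 3 of them called (limma, 4.29% of all genes). They summed to 1509 and 5680 in the wild-type pair against 9497 and 15059 in the homozygous pair. Spiral ganglion neuron markers had higher homozygous means for 10 of 11, with sums of 43.0 and 802 against 2675 and 3015. Markers of spiral ligament fibrocytes had lower homozygous means for 8 of 9, with sums of 7545 and 7166 in the wild-type against 2877 and 883 in the homozygous pair. Those of cartilage were lower in both homozygous libraries for 10 of the 13 tested (27.8% of all genes), 1 of them called (Col11a1, a cartilage collagen, limma adjusted p = 0.00510), and summed to 2908 and 1525 against 982 and 422, though Hapln1 and Comp of this list were listed at 0 in at least 1 library. Hair cell markers were lower in both for 9 of 10 (27.8% of all genes), with 3 called (limma, 4.29% of all genes). The remaining marker was higher in both. The sum of the hair cell list went the other way, with 176 and 274 in the wild-type against 1223 and 889 in the homozygous pair. The part of these tissues in the differences of the matrix and osteocyte genes was not tested.

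The list of osteocyte genes holds none of the bone genes. The osteocyte genes among the latter, Dmp1, Phex and Sost, had basal log2 fold changes of -0.45, 0.08 and 0.26, each with overlapping groups. Of the 7 osteocyte genes tested of 8 listed, 7 of 7 had lower homozygous means in the basal turn, 5 without overlap (27.8% of all genes), and 1 was called (4.29% of all genes). This was Tnfrsf11b, or osteoprotegerin, a decoy receptor that restrains osteoclasts, at 67.9 and 66.0 in the wild-type pair against 21.7 and 12.8 in the homozygous pair (log2 fold change -1.94, SE 0.24, limma adjusted p = 0.00403). This call held in 7 of 12 fits with a library left out and was lost without any one apical library or without wild-type basal repeat 1, where the limma adjusted p was 0.0164. Between apical turns 4 were higher and 3 lower, and between middle turns 5 and 2, with 0 called in each (limma, 0.179% of all genes in both). At an unadjusted p under 0.05 there were 3 in the apical and 2 in the middle comparison, against 16.4% and 25.4% of all genes. Mepe, the matrix phosphoglycoprotein that lies beside Ibsp, was at 1.47 and 3.69 in wild-type apical and 5.77 and 44.5 in homozygous apical libraries.

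Of 12 transcription factors and hormone receptors of osteoblasts, 11 were tested, and the homozygous mean was higher for 11 of 11 (apical), 8 (middle) and 2 (basal). In each turn 0 were called (limma), against 0.179%, 0.179% and 4.29% of all genes. At an unadjusted p under 0.05 there were 1, 3 and 3, the first 2 counts all higher and the last all lower, against 16.4%, 25.4% and 32.4% of all genes. Of 21 genes of WNT and BMP signalling, 19 were tested, with 12, 12 and 5 higher in homozygous apical, middle and basal pieces. In any turn 0 were called (limma), against 0.179%, 0.179% and 4.29% of all genes. An unadjusted p under 0.05 was reached by 4, 4 and 9 of the 19, against 16.4%, 25.4% and 32.4% of all genes, and the 9 were 1 higher and 8 lower.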

How the data were processed

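RNA-seq of 12 cochlear libraries was analysed (2 genotypes, 3 turns, 2 repeats). According to the methods and the submitters' processing notes, the authors trimmed 150 nt paired reads with fastp 0.20.0, aligned them to mm10 with STAR 2.7.3a, kept uniquely mapped reads, counted them with featureCounts 2.0.0, and deposited FPKM values from StringTie 2.0. The authors' tests on counts with DESeq2 1.30.0 were not used here. FPKM keep no read numbers, so depth is unknown and precision rests on the repeats alone; a library's FPKM summed to 316425 to 408162.

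Each library's FPKM were scaled by the median of its ratios to the geometric mean, taken over 11552 genes that reached 1 FPKM everywhere (factors 0.917 to 1.06). Genes below 1 FPKM in all or all but 1 library were dropped, which left 16215. Two-sided tests on log2(scaled FPKM + 1) used limma 3.58.1 in R 4.3.3, fitting a mean per group (6 groups) and moderating variances along their trend (6 residual, 2.78 prior degrees of freedom). For each of 13 contrasts p-values were adjusted by Benjamini-Hochberg across the tested genes. Calls needed an adjusted p under 0.01 and over 2-fold, the study's thresholds. The study applied them to a different test, on counts, so numbers of calls cannot be set beside its own. Between genotypes 29 apical, 29 middle and 696 basal genes were called here (limma). Figures were drawn with matplotlib 3.10.9 (Python 3.11.15). The fit was tested on simulated data.

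The bone genes and the 13 lists, compiled by hand, were chosen with earlier results of these data known. Named by rule were the bone genes, Gjb2, in each list the 3 members of highest mean and those called between genotypes, and the 10 genes most like the bone genes; not all are reported. Other genes named as markers of a tissue or a neighbour (Acp5, Bglap3, Mepe, and the osteoclast genes listed at 0) fall partly outside it. Genome positions are the table's own (GRCm38); 9 of 10 identifiers and 6 of 10 positions matched the GENCODE annotation used for coding sequences. Promoters were RefSeq's (GRCm38.p6). Alternatives were a pseudocount of 0.1, no filter or 5 FPKM, FPKM as deposited or rescaled to equal sums, library weights, only the libraries compared, a replicate block, an adjusted p under 0.05, each library left out, and the osteocalcin copies summed. No source says whether libraries with the same repeat number are linked, so the numbers were not used as pairs.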

Additional observations from a re-analysis of the deposited data

Results flagged for a closer look

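The genotype difference of Ibsp differed between the basal and the apical turn. Homozygous apical libraries were at 157 and 414 scaled FPKM, above the wild-type ones at 18.8 and 52.4, and homozygous basal libraries at 203 and 107, below the wild-type ones at 226 and 697. The test of the difference itself gave -4.40 on the log2 scale (SE 1.02, limma adjusted p = 0.0278, unadjusted p under 0.05 in 28.4% of all genes). With each library left out in turn it stayed below 0, from -5.21 to -3.59. Over all its alternatives the adjusted p ran from 0.0218 to 0.0969.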

How the results depend on the processing

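No bone gene was called in any of the 13 contrasts, and this count stayed at 0 under the alternatives run, apart from 1 (Bglap) in the apical turn when only the libraries compared were fitted and 1 (Ibsp) for the genotype effect in the basal minus the apical turn at an adjusted p under 0.05. The shares of all genes called under those alternatives are not given here, so both calls have no background beside them. The replicate block changed none of the counts of bone genes called. Same-numbered libraries deviated with a correlation of -0.07 (apical), -0.01 (middle) and 0.21 (basal), so the numbers were not taken as pairs. With the block, Ibsp had an adjusted p of 0.139 in the apical turn and 0.0409 for the basal minus apical effect, where the fold changes themselves stay the same by construction. Among the list genes called, Serpinf1 and Omd lost their calls under the block (adjusted p = 0.0194 and 0.0165) and without a filter (0.0182 and 0.0315), Tnfrsf11b without a filter (0.0126), Omd and Tnfrsf11b with library weights (0.0298 and 0.0228), Serpinf1 with equal sums (0.0122) and without both libraries highest in Bglap, and all 3, with Lox in the basal turn, when only the libraries compared were fitted (0.0878 to 0.149).

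The sign of the apical differences held for the 10 genes under each alternative. FPKM as deposited and rescaling to equal sums moved the median of all genes by 0.13 in the middle turn and by -0.10 in the apical turn, respectively. Under them the middle-turn differences turned above 0, to 0.16 and 0.10 in Spp1 and 0.16 and 0.10 in Dmp1.

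Leaving out each library in turn gave, in the basal turn, -1.34 to 0.38 in Spp1, -4.36 to 3.40 in Bglap, -4.71 to 2.33 in Bglap2, -1.39 to 1.90 in Sp7, -0.80 to 1.56 in Runx2, -1.05 to 0.14 in Dmp1, -0.68 to 1.19 in Sost, -1.09 to 1.25 in Phex and -1.93 to 2.22 in Alpl. The ends of these ranges came without wild-type basal repeat 1 and without repeat 2. In the middle turn the ranges were -0.25 to 0.22 in Spp1, -0.84 to 0.0060 in Ibsp, -0.78 to 0.75 in Dmp1 and -0.53 to 0.96 in Phex, set by either wild-type middle repeat. Over the mean of turns they were -0.20 to 0.37 in Spp1 and -0.043 to 0.47 in Dmp1.

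An alternative chosen after seeing the data left out both libraries highest in Bglap. A single library then remained in the wild-type basal and in the homozygous middle group. Basal differences were then 0.38 in Spp1, 3.40 in Bglap, 2.32 in Bglap2 and 0.14 in Dmp1. The middle difference of Dmp1 was 0.21, and the basal minus middle effect of Ibsp was 0.14. The libraries were picked by their Bglap level, so the shifts of Bglap and Bglap2 follow from that choice. With 2 libraries a group, a difference as wide as the intervals given could not be resolved, and the cause of these changes was not tested.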

Other observations

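Among the 9457 genes whose mean reached 5 scaled FPKM, the 10 whose pattern over the 12 libraries was most like the mean of the bone genes included Pth1r (r = 0.96), Mef2c (0.95), Prss35 (0.95), Lrp4 (0.93), Cdh11 (0.93), Sgms2 (0.92), Bgn (0.91), Ctla2a (0.91) and Ptgis (0.91). Pth1r, the parathyroid hormone receptor, reached 30.7 scaled FPKM, in wild-type basal repeat 2. Mef2c, a transcription factor of muscle, endothelium and bone cells, was at 3.69 to 20.4, and Bgn, the matrix proteoglycan biglycan, at 29.1 to 166. Lrp4 is a WNT and agrin co-receptor that also anchors sclerostin, and Cdh11 a cadherin of osteoblasts and mesenchyme. Without wild-type basal repeat 2 these r ran from 0.87 to 0.97. The same libraries defined both sides of each r, so it is a description without a test.

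Whole lists followed the bone genes to different degrees. The mean of the listed osteoblast transcription factors and hormone receptors had an r of 0.97 with that of the bone genes over the 12 libraries, other matrix and mineralization genes 0.93, macrophages 0.81, osteoclasts 0.72, stria vascularis 0.71, blood and marrow 0.51, osteocyte genes 0.50, WNT and BMP genes 0.47, cartilage 0.22, spiral ligament fibrocytes 0.16, spiral ganglion neurons 0.07, Schwann cells -0.05 and hair cells -0.40.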
